A study of Rattus norvegicus with 12 samples.

Results

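Potassium channels are encoded by one of the largest families of ion channel genes, and the rat genes of this family carry symbols that begin with Kcn. The members described here are all genes with such a symbol that had a probe set naming that gene alone, each taken at its brightest probe set. There were 83 of them among 14506 genes on the array. Of these, 35 encode voltage-gated pore (alpha) subunits, 16 accessory subunits, 15 inward rectifiers, 11 channels with 2 pore domains per subunit and 6 channels opened by calcium or sodium. A gene was tested when its mean over the arrays was above the lowest 30% of all genes, a limit of 6.44 on the log2 scale. Of the 83 members, 47 passed this limit and 36 were dim and were not tested. A member that passed through the groups in which it was bright necessarily differed between groups, so the 47 do not stand for the whole family.

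RNA from the whole uterus of young adult female Lewis rats was hybridised to 1 array per rat. All rats had been ovariectomized, so the ovary was absent in every group, vehicle included. The groups received DMSO as vehicle, 17β-estradiol (E2) at 4 µg per kg and day, 3-methylcholanthrene (3-MC) at 15 mg per kg and day, or E2+3-MC, for 3 days, and the uterus was removed 24 h after the last dose. Each group held 3 rats, named here rat 1 to rat 3 within their group. E2 is the main ovarian estrogen and acts through estrogen receptors, and 3-MC, a polycyclic aromatic compound, is a ligand of the aryl hydrocarbon receptor (AhR). The comparisons ask what E2 does without and with 3-MC, what 3-MC does alone, and what it does on top of E2.

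Potassium channels let potassium leave the cell and hold the membrane potential negative, which keeps voltage-gated calcium channels closed and smooth muscle relaxed. In the myometrium they set how easily the muscle contracts, and in epithelia they supply the driving force for secretion and recycle the potassium brought in by the sodium pump. Pore subunits assemble with each other and with accessory subunits, which alter the gating and the surface delivery of the pore.

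Values are given as deposited probe set intensities per rat and as differences ± SE between groups of 3 rats on the scale log2(intensity + 16). The added 16 makes the differences of dim genes too small. A gene was called, and is said to have risen or fallen, at a Benjamini-Hochberg adjusted p under 0.05 in limma over 10154 genes. Intensities of different probe sets are not compared with each other. Array medians ranged from 86.3 to 124, and those of the E2 rats (86.3 to 108) lay below those of the E2+3-MC rats (110 to 118). Vehicle rat 1 stood apart: its log2 values had the widest interquartile range, 2.70, where the remaining arrays had 1.87 to 2.35. As a check of the tissue label, the smooth muscle and epithelial marker genes measured (10 of each) were all above the dim limit. In whole tissue, fewer cells of a type and less RNA per cell cannot be told apart.

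E2 altered potassium channel genes in both directions. Of the 47 members tested, 16 (34%) passed the test against vehicle: 6 rose and 10 fell. Over all genes tested, 18.1% were called, 8.70% higher and 9.44% lower. The largest falls were those of Kcnip1, Kcna2 and Kcnb2, and the largest rises those of Kcnf1, Kcnt2, Kcna1 and Kcnip2. The median difference of the members was -0.23 on the log2 scale, against -0.11 for all genes tested. In 7 of the 16 called genes the lower group had a mean under the dim limit (Kcna1, Kcna2, Kcne2, Kcnf1, Kcnip1, Kcnip2 and Kcnt2), and the sizes of these differences are uncertain. Without vehicle rat 1, 22 members were called, 8 higher and 14 lower, against 34.9% of all genes (3541). These 22 held all 16.

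Kcnip1 encodes a calcium-binding protein (KChIP1) that attaches to Kv4 pore subunits, brings them to the surface and slows their inactivation. Its intensities were 638, 359 and 269 in the vehicle rats and 40.6, 19.8 and 24.7 in the E2 rats. They were 389, 323 and 396 with 3-MC and 79.2, 89.9 and 30.3 with E2+3-MC. Every rat given E2, with or without 3-MC, thus lay below every rat not given it. The gene fell by 3.24 ± 0.32 with E2 (adjusted p = 1.33e-06), to 0.106 times the vehicle level on this scale, and a further probe set for it differed by -2.03.

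Kcna2 encodes Kv1.2, a delayed-rectifier pore subunit that forms tetramers with other Kv1 subunits. Its intensities were 616, 479 and 428 with vehicle, 52.6, 74 and 57.8 with E2, 683, 496 and 431 with 3-MC, and 63.4, 122 and 57.4 with E2+3-MC. It fell by 2.75 ± 0.25 with E2 (adjusted p = 6.18e-07). Kcnb2 encodes Kv2.2, another delayed rectifier. Its intensities were 460, 287 and 314 with vehicle, 115, 94.9 and 88.7 with E2, 401, 281 and 360 with 3-MC, and 147, 106 and 105 with E2+3-MC. It fell by 1.66 ± 0.22 with E2 (adjusted p = 4.23e-05). For both genes the 6 rats given E2 and the 6 rats not given it did not overlap.

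Kcnf1 encodes Kv5.1, an electrically silent subunit that forms no channel of its own and modifies Kv2 channels such as Kv2.2. Its intensities were 55.4, 51 and 58.4 with vehicle, 343, 224 and 312 with E2, 39.6, 52.5 and 46.3 with 3-MC, and 165, 132 and 547 with E2+3-MC. It rose by 2.10 ± 0.35 with E2 (adjusted p = 0.000414), while the E2+3-MC rats varied widely, with an SD of 1.04 on the log2 scale. Kcnt2 encodes the sodium-activated pore Slick. Its intensities were 43.7, 40.3 and 36 with vehicle, 223, 137 and 205 with E2, 59.4, 38.1 and 50.2 with 3-MC, and 183, 150 and 188 with E2+3-MC. It rose by 1.85 ± 0.21 with E2 (adjusted p = 7.06e-06).

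Kcna1 encodes Kv1.1, a Kv1 pore that opens at more negative voltages than most of its relatives. Its intensities were 40.3, 50.9 and 46.8 with vehicle, 157, 117 and 145 with E2, 52.8, 38.9 and 45.1 with 3-MC, and 157, 144 and 112 with E2+3-MC. It rose by 1.32 ± 0.19 with E2 (adjusted p = 0.000107), opposite to the other Kv1 pore gene called, Kcna2. Kcnip2 encodes KChIP2, a Kv4 partner of the same kind as KChIP1. Its intensities were 52.4, 48.4 and 27.5 with vehicle, 173, 105 and 110 with E2, 42.4, 40.7 and 61.2 with 3-MC, and 134, 199 and 180 with E2+3-MC. It rose by 1.30 ± 0.24 with E2 (adjusted p = 0.000966), and a further probe set for it differed by 0.67. So Kcnip1 and Kcnip2, which serve the same pores, moved in opposite directions, as did Kcna1 and Kcna2.

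**Figure D1:**
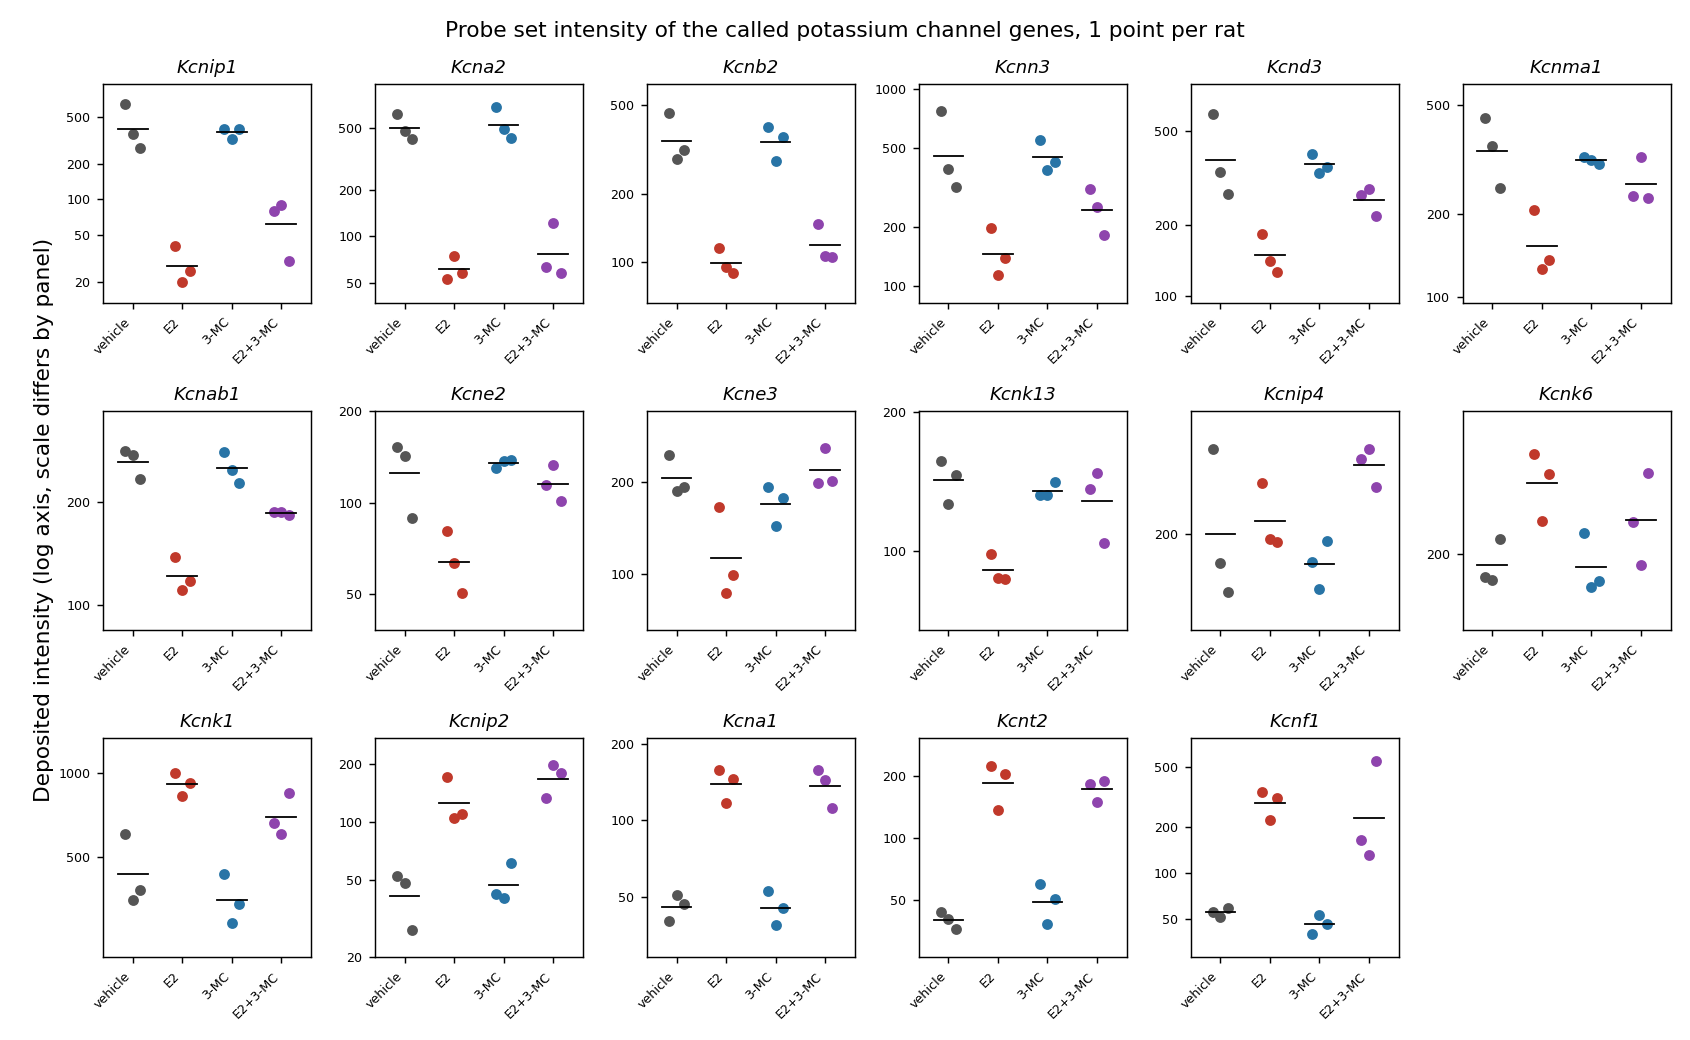
Deposited probe set intensity (log axis, a scale of its own in each panel) of the 17 potassium channel genes called with E2 without or with 3-MC, with 1 point per rat, 3 rats per group, and a line at the mean of the group's log2 values. In the panels of Kcnip1, Kcna2, Kcnb2, Kcnip2, Kcna1, Kcnt2, Kcnf1 and Kcnab1 all rats given E2 lie on one side of all rats not given it. This also holds for Kcnn3 (nearest rats 311 and 318) and Kcnk1 (601 and 600), by narrow margins. Kcne3 in the E2+3-MC rats (199 to 259) lies above its level in the E2 rats (86.3 to 165).

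The promoters of the genes called both without and with 3-MC are shown because estrogen receptors and AhR bind DNA. RefSeq promoter windows on the GRCr8 build, from 250 bases before to 50 bases after the start of transcription, were at hand for 58 members in 64 windows, and for 5 of the 8 genes called in both comparisons. They are given 5′ to 3′ in the direction of transcription, in lower case, with matches to GGTCA (one arm of the estrogen response element) or GCGTG (the core of the AhR response element) on either strand in capitals. Kcnip1 has a pair of annotated starts, and which of them the array reports is not known.
Kcna2, chr2:197393280-197393579, plus strand: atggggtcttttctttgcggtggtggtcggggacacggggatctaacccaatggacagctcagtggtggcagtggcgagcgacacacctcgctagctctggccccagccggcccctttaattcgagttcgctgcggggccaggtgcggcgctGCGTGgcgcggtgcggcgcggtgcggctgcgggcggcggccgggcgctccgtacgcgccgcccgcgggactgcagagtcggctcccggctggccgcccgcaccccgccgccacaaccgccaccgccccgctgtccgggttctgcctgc
Kcnf1, chr6:45693657-45693956, minus strand: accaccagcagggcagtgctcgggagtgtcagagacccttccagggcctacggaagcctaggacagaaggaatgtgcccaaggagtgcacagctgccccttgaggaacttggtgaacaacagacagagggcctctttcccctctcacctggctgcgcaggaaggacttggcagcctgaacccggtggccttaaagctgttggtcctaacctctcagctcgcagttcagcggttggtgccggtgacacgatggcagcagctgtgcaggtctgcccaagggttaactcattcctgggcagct
Kcnip1, chr10:18940760-18941059, minus strand: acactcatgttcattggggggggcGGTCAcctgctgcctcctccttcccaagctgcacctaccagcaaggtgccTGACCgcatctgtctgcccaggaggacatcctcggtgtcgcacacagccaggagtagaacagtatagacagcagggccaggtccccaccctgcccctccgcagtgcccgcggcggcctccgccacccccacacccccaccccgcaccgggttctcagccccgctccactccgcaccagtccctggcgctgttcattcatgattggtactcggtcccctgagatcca
Kcnip1, chr10:19092976-19093275, minus strand: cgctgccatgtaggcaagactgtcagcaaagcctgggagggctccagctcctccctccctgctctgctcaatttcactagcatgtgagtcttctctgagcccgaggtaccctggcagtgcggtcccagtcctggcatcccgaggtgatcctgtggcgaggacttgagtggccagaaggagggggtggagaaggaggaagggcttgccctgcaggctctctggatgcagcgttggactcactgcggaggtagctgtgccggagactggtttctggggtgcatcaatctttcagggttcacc
Kcnip2, chr1:254613849-254614148, minus strand: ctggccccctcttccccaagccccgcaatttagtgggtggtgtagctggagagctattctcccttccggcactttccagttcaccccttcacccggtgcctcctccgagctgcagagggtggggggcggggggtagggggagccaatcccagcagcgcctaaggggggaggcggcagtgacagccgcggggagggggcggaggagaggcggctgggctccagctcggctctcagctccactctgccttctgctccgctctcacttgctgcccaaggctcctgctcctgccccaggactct
Kcnt2, chr13:54215057-54215356, plus strand: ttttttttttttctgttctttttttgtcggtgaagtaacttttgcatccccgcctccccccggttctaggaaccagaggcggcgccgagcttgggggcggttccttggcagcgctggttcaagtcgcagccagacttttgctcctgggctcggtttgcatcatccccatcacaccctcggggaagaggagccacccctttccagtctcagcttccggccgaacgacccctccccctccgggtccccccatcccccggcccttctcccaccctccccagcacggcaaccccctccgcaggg

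The Kcna2 window held 1 match to GCGTG, the first Kcnip1 window held 2 matches to GGTCA, and the windows of Kcnf1, Kcnip2, Kcnt2 and the other Kcnip1 start held none of either. The motifs did not overlap each other. Over all 33469 rat promoter windows of the same length, GGTCA was found in 40.5% and GCGTG in 29.7%, and over the 64 member windows in 32.8% and 42.2%. These shares were not adjusted for base composition. The windows shown had 59.7% to 73.3% G and C, against a median of 51.7% over all windows. The whole element GGTCANNNTGACC was in 0.0269% of all windows and in 0 of the 64. A match is a run of letters, not a shown binding site, and an absent match speaks of this window alone.

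The genes for calcium-activated channels included a pair of falls. Kcnn3 encodes SK3, a small-conductance channel opened by calcium alone that damps uterine contraction in mice. Its intensities were 770, 390 and 318 with vehicle, 197, 113 and 138 with E2, 546, 387 and 425 with 3-MC, and 311, 250 and 181 with E2+3-MC. It fell by 1.55 ± 0.29 with E2 (adjusted p = 0.00124), and by 1.19 without vehicle rat 1, its highest rat. Kcnma1 encodes the pore of the large-conductance BK channel, opened by calcium and voltage together. Its intensities were 448, 354 and 249 with vehicle, 207, 127 and 136 with E2, 322, 315 and 305 with 3-MC, and 234, 322 and 229 with E2+3-MC. It fell by 1.07 ± 0.23 with E2 (adjusted p = 0.00372).

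Kcnmb1 encodes the β1 subunit that makes the BK channel of smooth muscle sensitive to calcium. Its intensities were 1220, 886 and 768 with vehicle, 1180, 994 and 1120 with E2, 1120, 870 and 969 with 3-MC, and 1020, 976 and 1240 with E2+3-MC. All groups overlapped, and the E2 difference was 0.22 ± 0.20 (95% interval -0.21 to 0.64, adjusted p = 0.494).

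The Kv4 pore gene and a Kv1 partner also fell. Kcnd3 encodes Kv4.3, the A-type pore that KChIP proteins bind. Its intensities were 590, 335 and 271 with vehicle, 183, 141 and 126 with E2, 401, 333 and 353 with 3-MC, and 267, 284 and 218 with E2+3-MC. It fell by 1.26 ± 0.24 with E2 (adjusted p = 0.00156), and by 0.95 without vehicle rat 1. Kcnab1 encodes a cytoplasmic β subunit that speeds the inactivation of Kv1 channels. Its intensities were 282, 274 and 233 with vehicle, 138, 111 and 118 with E2, 281, 248 and 228 with 3-MC, and 187, 187 and 183 with E2+3-MC. It fell by 1.01 ± 0.17 with E2 (adjusted p = 0.000606), and the E2+3-MC rats lay between the E2 rats and the rats not given E2.

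Kcne2 and Kcne3 encode small accessory subunits with a single membrane span that hold the Kcnq1 pore open in epithelia. Kcne2 had intensities of 152, 143 and 89.2 with vehicle, 80.5, 63.1 and 50.2 with E2, 130, 137 and 138 with 3-MC, and 114, 133 and 101 with E2+3-MC. It fell by 0.83 ± 0.21 with E2 (adjusted p = 0.0120). Kcne3 had intensities of 245, 187 and 192 with vehicle, 165, 86.3 and 99.2 with E2, 193, 143 and 177 with 3-MC, and 199, 259 and 201 with E2+3-MC. It fell by 0.79 ± 0.22 with E2 (adjusted p = 0.0215). The pore gene itself, Kcnq1, differed by -0.03 ± 0.17 (95% interval -0.39 to 0.33, adjusted p = 0.928). The calls of Kcne2 and Kcne3 were each lost in 3 alternatives, among them the fit to the E2 and vehicle rats alone and the one without E2 rat 3.

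Channels with 2 pore domains carry background current at rest. Kcnk1 encodes TWIK-1, found in many epithelia. Its intensities were 600, 350 and 381 with vehicle, 1000, 821 and 921 with E2, 434, 290 and 339 with 3-MC, and 662, 601 and 842 with E2+3-MC. It rose by 1.05 ± 0.23 with E2 (adjusted p = 0.00361). All rats given E2 lay above all rats not given it, but barely, with the nearest at 601 (E2+3-MC) and 600 (vehicle rat 1). Kcnk6, which encodes the related TWIK-2, rose by 0.69 ± 0.23 (adjusted p = 0.0432), from 174, 170 and 219 with vehicle to 372, 246 and 328 with E2. Kcnk13, which encodes THIK-1, fell by 0.57 ± 0.18 (adjusted p = 0.0357), from 156, 126 and 146 with vehicle to 98.6, 87.2 and 86.7 with E2. The call of Kcnk6 was lost in 10 of 22 alternatives and that of Kcnk13 in 9 of 21. The relative of THIK-1 called THIK-2, encoded by Kcnk12, differed by 0.01 ± 0.17 (95% interval -0.34 to 0.36).

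Of the 18 voltage-gated pore genes tested, 2 rose and 3 fell with E2, and of the 12 accessory genes 1 rose and 4 fell. Of the 5 genes for 2-pore-domain channels 2 rose and 1 fell, and of the 6 for calcium- or sodium-activated channels 1 rose and 2 fell. None of the 6 inward rectifier genes tested was called, and their differences ran from -0.52 to 0.16. Inward rectifiers pass potassium more easily into the cell than out and clamp the resting potential. Kcnj8, the pore of the vascular ATP-sensitive channel, differed by 0.16 ± 0.22 (95% interval -0.30 to 0.63), and Kcnj13, which encodes Kir7.1, by -0.33 ± 0.21 (95% interval -0.77 to 0.10). The value of Kcnj8 depended on vehicle rat 1 (286), where the other vehicle rats had 166 and 139. In the fit without that rat Kcnj8 differed by 0.45 and was called.

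Other members with a known place in smooth muscle or epithelium did not pass the test. Kcnh2, which encodes the ERG pore, differed by 0.01 ± 0.21, and Kcnn4, the intermediate-conductance calcium-activated channel, by -0.30 ± 0.21. Kcna5, which encodes the vascular Kv1.5, differed by -0.43 ± 0.17 (adjusted p = 0.0919), with the E2 rats (59.5 to 69) below the vehicle rats (79.8 to 100). Kcne1 and Kcne4, accessory subunits related to Kcne2, differed the other way, by 0.40 ± 0.20 and 0.34 ± 0.19, and the E2 rats lay above the vehicle rats for both. After quantile normalization these last differences were 0.54 (adjusted p = 0.0124) and 0.49 (adjusted p = 0.0188). In all, the E2 and vehicle rats did not overlap for 22 of the 47 members tested, 8 higher and 14 lower with E2, against 27.2% of all genes tested.

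Quantile normalization, which gives every array the same distribution, called 19 of 49 members, 8 higher and 11 lower, against 38.4% of all genes. All 16 called genes stayed called. It moved the median E2 difference of all genes from -0.11 to -0.03, and median centring moved it to 0.05.

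**Figure D2:**
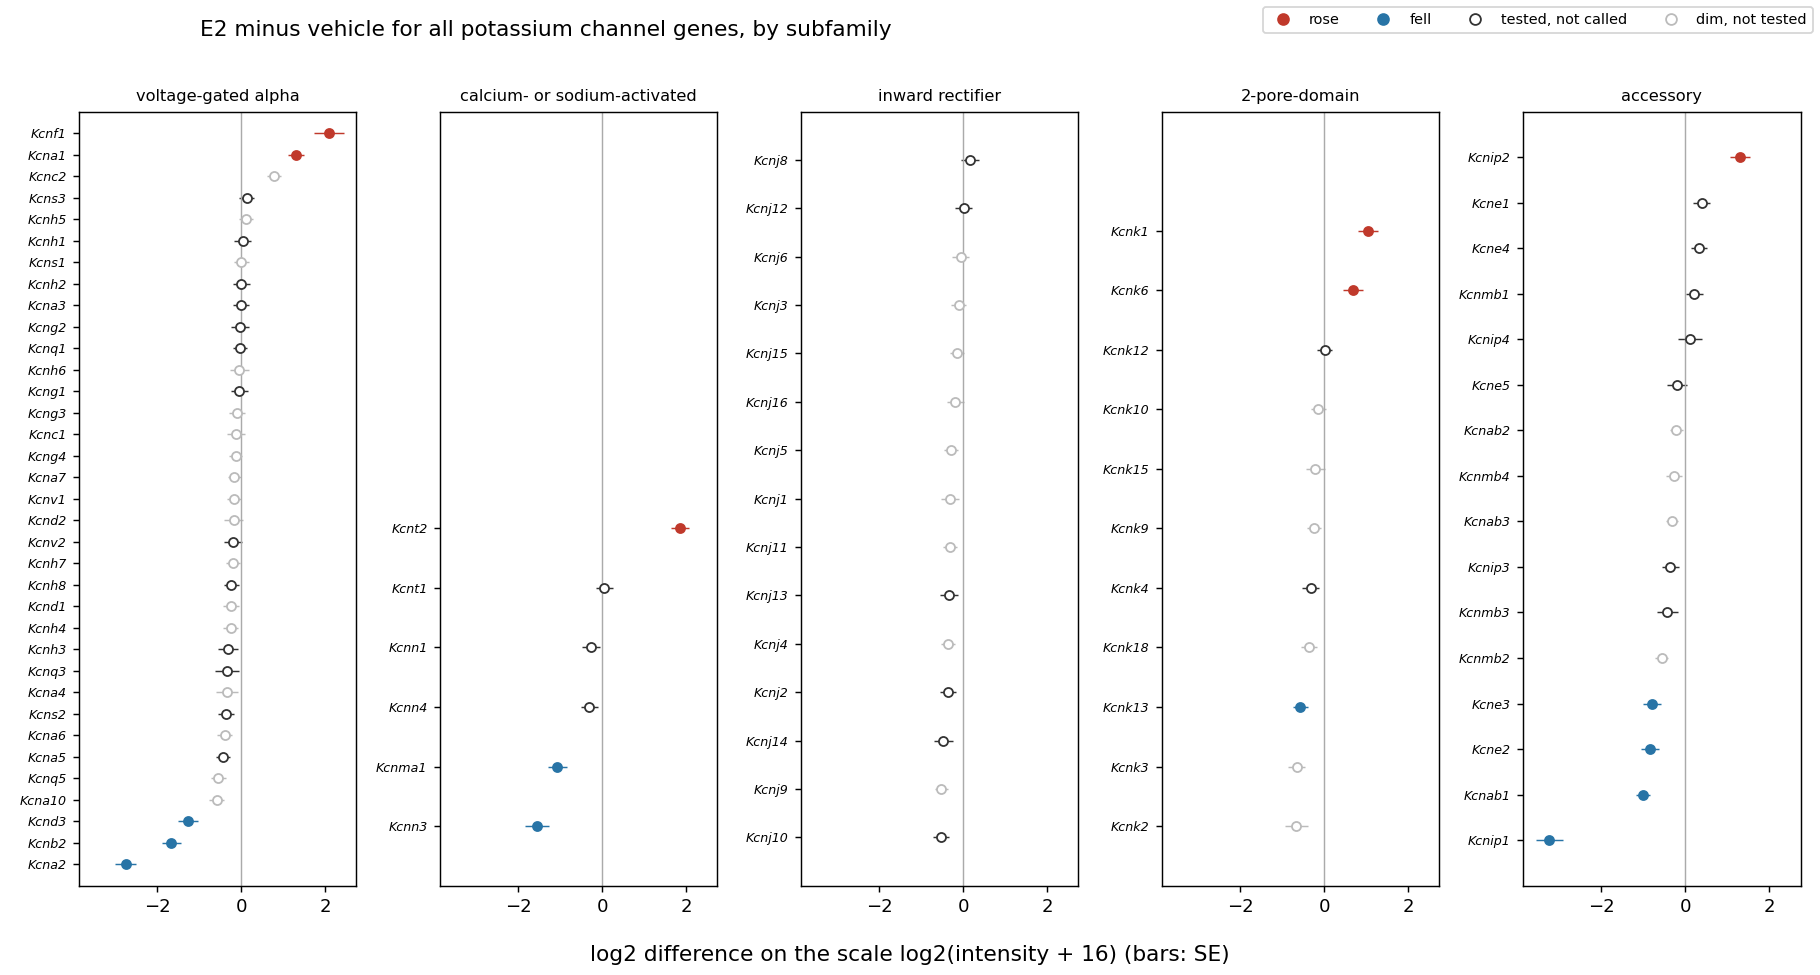
E2 minus vehicle difference ± SE on the log2(intensity + 16) scale (horizontal axis) for all 83 potassium channel genes, ordered within each of 5 subfamilies, with 3 rats per group. Filled red points rose, filled blue points fell, open dark points were tested and not called, and open grey points were dim. The called genes run from -3.24 (Kcnip1) to 2.10 (Kcnf1), and the panel of inward rectifiers holds no filled point.

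The 36 dim members differed by -0.66 to 0.78 between E2 and vehicle, and 33 of them (91.7%) were lower with E2, against 79.7% of all 4352 dim genes. After quantile normalization 23 (63.9%) were lower, against 56.2% of all dim genes, and after median centring 24, against 56%. Kcnd2, the Kv4.2 pore gene, was at -0.18 as deposited and at 0.02 after quantile normalization. With no filter on dim genes 6 of the 36 were called, against 7.90% of all dim genes (344). Kcnc2, which encodes the fast delayed rectifier Kv3.2, was the only one of these that was higher (0.78), with intensities of 36.4, 40.7 and 26.9 with vehicle and 69.9, 74.6 and 66.1 with E2. The other 5 were lower: Kcna10 (-0.58), Kcnj9 (-0.52), Kcnk3 (-0.65), Kcnmb2 (-0.56) and Kcnq5 (-0.54). Kcnk3 encodes the acid-sensitive background channel TASK-1. Dim members with a known place in smooth muscle that stayed uncalled were Kcnj11 (-0.31), the Kir6.2 pore of ATP-sensitive channels, the stretch-activated Kcnk2 (-0.66) and the β subunit gene Kcnab2 (-0.21). Kcnc2, Kcna10, Kcnj9, Kcnmb2 and Kcnq5 are named because of these values.

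Marker genes of several cell types moved in the same comparison, and their part in the channel results was not tested. Of 10 epithelial markers tested, 8 rose with E2 and none fell, with a summed intensity of 3720 to 7820 in the vehicle rats and 16100 to 19500 in the E2 rats. It was 3420 to 4540 with 3-MC and 8380 to 17300 with E2+3-MC. Of 7 endothelial markers, 6 fell and none rose, with sums of 2410 to 4700 with vehicle, 1590 to 1750 with E2, 2430 to 2810 with 3-MC and 1910 to 2120 with E2+3-MC. Of 10 smooth muscle markers, 2 rose (Des and Actg2) and none fell, with sums of 22900 to 39700 with vehicle, 34500 to 38600 with E2, 22700 to 26400 with 3-MC and 30000 to 41200 with E2+3-MC.

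Of 6 macrophage and leukocyte markers, 4 rose, with sums of 552 to 1450 with vehicle, 1560 to 2630 with E2, 608 to 1110 with 3-MC and 1970 to 2260 with E2+3-MC. Of 5 nerve and glia markers tested, 1 fell (Gap43) and 3 more were dim (Snap25, Elavl4 and Prph), with sums of 803 to 2540 with vehicle, 813 to 992 with E2, 839 to 1070 with 3-MC and 950 to 1190 with E2+3-MC. Of 5 pericyte markers 1 fell, with sums of 2230 to 4540 with vehicle, 1480 to 2140 with E2, 2430 to 2860 with 3-MC and 2090 to 2360 with E2+3-MC. Of 6 stromal markers 1 fell, with sums of 6490 to 14900, 6290 to 8690, 7190 to 8110 and 8500 to 9220 in the same order of groups. Of 4 adipocyte markers tested 3 fell, with sums of 1370 to 9750, 2140 to 2370, 230 to 3990 and 2780 to 5180. Both red cell markers fell, with sums of 2170 to 4920, 439 to 1360, 1500 to 1960 and 826 to 2460. Of 4 skeletal muscle markers 1 rose and 1 fell, with sums of 1160 to 1900, 2840 to 3050, 1270 to 1550 and 1780 to 2860. No marker was listed at 0.

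Genes that work with potassium channels were read against the 18.1% of all genes called with E2. Among 12 tested partners of the pores, 2 rose and 1 fell. Lrrc26, which encodes a BK channel γ subunit of secretory epithelia, rose by 1.94 ± 0.31 (adjusted p = 0.000289), from 31.9, 96.3 and 33.6 with vehicle to 254, 225 and 213 with E2, while the BK pore gene Kcnma1 fell. Fhl1, a LIM protein that binds Kv1.5, rose by 0.98 ± 0.26, and Amigo1, a Kv2 accessory protein, fell by 0.83 ± 0.19. Among 13 tested genes of the sodium-potassium pump and of potassium cotransport, 1 rose and 4 fell: the pump subunit gene Atp1b3 (1.24) against Fxyd4 (-1.61), Atp12a (-1.31), Atp1b2 (-0.94) and Slc12a7 (-0.79). Among 22 tested genes of calcium entry and release, 2 rose and 2 fell. Cacna1d, the pore of the L-type channel Cav1.3, fell by 2.50 ± 0.23 (adjusted p = 7.37e-07), from 440, 541 and 401 with vehicle to 98.9, 54.4 and 56.8 with E2. Phospholamban (Pln, -1.07) fell, and the ryanodine receptor Ryr2 (1.17) and the gap junction gene Gja1 (1.25), which couples myometrial cells, rose. For Gja1 the groups overlapped, with vehicle rat 1 (748) above E2 rat 2 (717). The medians of the 3 lists were -0.10 for pore partners, -0.32 for pump and cotransport and -0.04 for calcium genes, against -0.11 for all genes.

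3-MC without E2 left the members without a call. Of the 47 tested, 0 were called in limma and 0 had an unadjusted p under 0.05, against 0% of all genes called. The differences ran from -0.29 to 0.36, with a median of 0.03 against -0.05 for all genes. None of the 47 was without overlap between 3-MC and vehicle, against 3.10% of all genes. The highest were the sodium-activated Kcnt1 (0.36 ± 0.20), Kcnj13 (0.33 ± 0.21) and the M-current pore Kcnq3 (0.29 ± 0.29), and the lowest Kcnip4 (-0.29 ± 0.29), Kcnk1 (-0.29 ± 0.23) and Kcne3 (-0.26 ± 0.22). Without vehicle rat 1 the first of these were at 0.29, 0.31 and 0.09. Kcnip4, Kcnk1 and Kcne3 were then at 0.13, -0.06 and -0.14. For Kcnip1 the difference was -0.10 (95% interval -0.77 to 0.56) and for Kcna2 0.07 (95% interval -0.46 to 0.60), against E2 differences of -3.24 and -2.75. Among dim members Kcnj9 differed by 0.40, with all 3-MC rats (94.2 to 115) above all vehicle rats (71.4 to 80), and was not tested.

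In rats that also received 3-MC, E2 changed genes for Kv1 and Kv2 pores, KChIP partners, Slick and TWIK-1. Between E2+3-MC and 3-MC, 9 of the 47 members were called (19.1%), 6 higher and 3 lower, against 8.21% of all genes, 6.82% higher and 1.39% lower. The falls were those of Kcna2 (-2.54 ± 0.25), Kcnip1 (-2.31 ± 0.32) and Kcnb2 (-1.42 ± 0.22). The rises were those of Kcnf1 (1.99 ± 0.35), Kcnt2 (1.55 ± 0.21), Kcnip2 (1.54 ± 0.24), Kcna1 (1.31 ± 0.19), Kcnk1 (0.96 ± 0.23) and Kcnip4 (0.96 ± 0.29). Kcnip4, which encodes KChIP4, had intensities of 164, 135 and 191 with 3-MC and 344, 371 and 282 with E2+3-MC. Its adjusted p was 0.0490, and the call was lost in 11 of 22 alternatives. With vehicle it ran from 132 to 371, and with E2 from 190 to 290.

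The count moved with the normalization and with vehicle rat 1. After quantile normalization 18 of 49 members were called, 7 higher and 11 lower, against 26.1% of all genes, and these held all 9. The further falls included Kcnn3 (-1.04), the A-type pore gene Kcna4 (-0.95), Kcnd3 (-0.65), Kcnj13 (-0.61) and Kcnab1 (-0.53). Without vehicle rat 1, 15 were called, 7 higher and 8 lower, against 21.4% of all genes. With the E2+3-MC and 3-MC rats alone in the fit, 15 were called as well, against 22.4% of all genes. The members' groups did not overlap for 18 of 47, 9 higher and 9 lower, against 37.3% of all genes. Their median was -0.06 against 0.08 for all genes.

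The comparisons of E2 without and with 3-MC share no rats, so their differences can be set side by side. Their calls come from the same limma fit to all arrays, so each gene's spread is shared. The overlap of the calls is therefore not that of independent tests. Without vehicle rat 1, a rat of neither the E2+3-MC nor the 3-MC group, the calls between these groups went from 9 to 15. Of the 16 genes called without 3-MC, 8 were called with it (50%), all in the same direction, and these were 88.9% of the 9 called with it. Over all genes the share was 40.2% (740 of 1842). Of the 16, 15 had the same sign with 3-MC, the exception being Kcne3, and 11 were also without overlap in the same direction. Across the 47 members the differences correlated with an r of 0.94, and across all genes with 0.92, as a description over genes that share arrays. The genes called in both were Kcnip1, Kcna2, Kcnb2, Kcnf1, Kcnt2, Kcna1, Kcnip2 and Kcnk1. Kcnn3 (-0.85 ± 0.29), Kcnd3 (-0.48 ± 0.24), Kcnab1 (-0.41 ± 0.17), Kcnk6 (0.40 ± 0.23) and Kcnma1 (-0.26 ± 0.23) were not called with 3-MC.

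**Figure D3:**
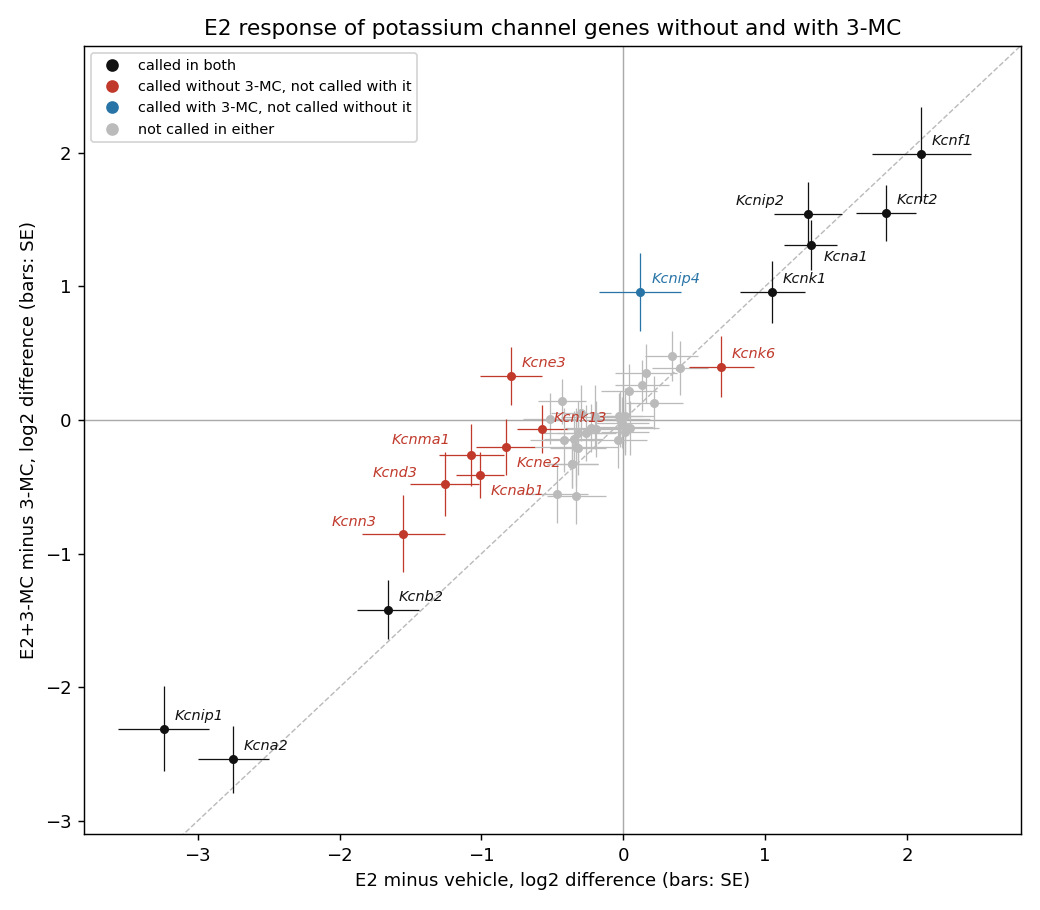
Log2 difference ± SE of E2 minus vehicle (horizontal axis) against E2+3-MC minus 3-MC (vertical axis) for the 47 tested potassium channel genes, from groups of 3 rats that are not shared, with a dashed line of equality. The 8 genes called in both lie far from 0 on both axes, and Kcne3 lies at -0.79 without 3-MC and at 0.33 with it.

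Partner genes were also called between E2+3-MC and 3-MC. Lrrc26 rose by 1.33 ± 0.31 and was the one pore partner called. Of the pump and cotransport genes 3 rose (Atp1b3 1.16, Fxyd3 1.00 and Fxyd5 0.96) and 2 fell (Fxyd4 -1.64 and Atp12a -0.94). Of the calcium genes 2 rose (Ryr2 0.77 and the T-type pore gene Cacna1g 0.68) and 2 fell (Cacna1d -2.19 and Pln -0.94). Beside these, 7 of 10 epithelial markers rose, as did 5 of 6 macrophage and leukocyte markers and 2 of 10 smooth muscle markers, and none of the 7 endothelial markers was called. The medians of the pore partner, pump and calcium lists were 0.06, 0.01 and 0.12, against 0.08 for all genes.

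E2+3-MC against vehicle shares its rats with the comparisons above and is given for its own values. Of the 47 members 7 were called (14.9%), 4 higher and 3 lower, against 7.84% of all genes, 6.06% higher and 1.78% lower. Kcnf1 (1.80 ± 0.35), Kcnt2 (1.76 ± 0.21), Kcnip2 (1.68 ± 0.24) and Kcna1 (1.30 ± 0.19) rose, and Kcna2 (-2.48 ± 0.25), Kcnip1 (-2.41 ± 0.32) and Kcnb2 (-1.43 ± 0.22) fell. Their median was 0.07, against 0.05 for all genes. After quantile normalization 14 of 49 were called, 6 higher and 8 lower, against 26.1% of all genes, and these held all 7. Without vehicle rat 1, 10 of 48 were called (20.8%), 7 higher and 3 lower, against 26.6% of all genes.

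3-MC given on top of E2 left the members without a call. Of the 47, 0 were called in limma, against 0% of all genes. An unadjusted p under 0.05 was seen for 10, a count without a share over all genes to read it against. The E2+3-MC and E2 rats did not overlap for 10 members, all higher with E2+3-MC, against 17.9% of all genes in either direction. These were Kcne3 (0.86 ± 0.22), Kcne2 (0.72 ± 0.21), Kcnd3 (0.72 ± 0.24), Kcnma1 (0.70 ± 0.23), Kcnab1 (0.55 ± 0.17), Kcna5 (0.53 ± 0.17), Kcnk13 (0.43 ± 0.18), Kcnj10 (0.40), Kcnh8 (0.37) and Kcng2 (0.31). The first 6 had an adjusted p of 0.488. Kcnip1 was at 0.83 ± 0.32 with overlap, since E2+3-MC rat 3 (30.3) lay within the E2 rats (19.8 to 40.6). The lowest values were those of Kcnk1 (-0.38 ± 0.23), Kcnk6 (-0.31 ± 0.23) and Kcnf1 (-0.30 ± 0.35).

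The array medians of these groups differ, so the values were also taken after quantile normalization. The median difference of the 47 members was 0.23 and that of all genes 0.15. After quantile normalization all genes were at -0.01, and 9 of 49 members were without overlap, 6 higher and 3 lower, against 22.6% of all genes. The 6 higher were Kcna5, Kcnab1, Kcnd3, Kcne2, Kcne3 and Kcnma1, and the 3 lower Kcnh1, Kcnk1 and Kcnq1. Kcne3 was then at 0.65, Kcnd3 at 0.53, Kcnma1 at 0.51 and Kcne2 at 0.46, with 0 members called. On the deposited scale 3 members, Kcnd3, Kcne2 and Kcne3, were called without vehicle rat 1, a rat of neither group that enters through the shared spread, against 1.15% of all genes. The count was likewise 3 with these groups alone in the fit, against 1.42% of all genes.

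**Figure D4:**
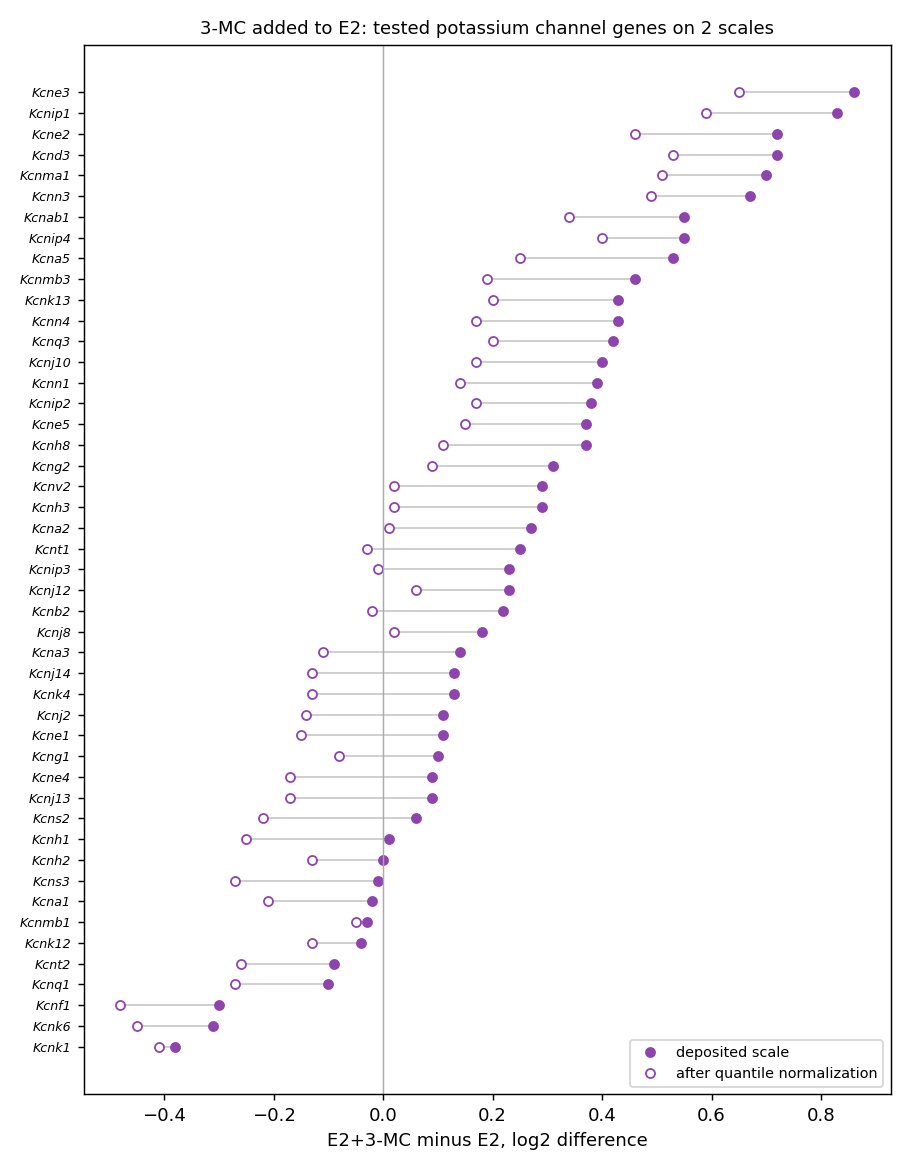
Log2 difference of E2+3-MC minus E2 (horizontal axis, 3 rats per group) for the 47 potassium channel genes tested on the deposited scale, ordered by size, with filled points for the deposited scale and open points after quantile normalization. Every open point lies to the left of its filled point, Kcne3 leads on both scales (0.86 and 0.65), and no gene was called on either.

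The interaction asks whether the E2 difference is another one with 3-MC than without it. Of the 47 members 0 were called in limma, against 0% of all genes. An unadjusted p under 0.05 was seen for 5, likewise without a share over all genes. Values ran from -0.30 to 1.12, with a median of 0.13 against 0.19 for all genes (0.02 for all genes after median centring). The highest were Kcne3 (1.12 ± 0.32), Kcnip1 (0.94 ± 0.45) and Kcnip4 (0.84 ± 0.41), and the lowest Kcnt2 (-0.30 ± 0.29), Kcnk6 (-0.30 ± 0.32) and Kcnj13 (-0.24 ± 0.29). Without vehicle rat 1 Kcne3, Kcnip1 and Kcnip4 were at 1.01, 0.60 and 0.42, and Kcnt2, Kcnk6 and Kcnj13 at -0.34, -0.25 and -0.23. For Kcna2 it was 0.21 (95% interval -0.54 to 0.95) and for Kcna1 -0.01 (95% interval -0.58 to 0.55). The SEs of 0.24 to 0.49 among the named genes show how wide a difference of differences remains with 3 rats per group.

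On the GRCr8 gene order 9 pairs of members lie next to each other, and in 6 of the 9 both E2 differences had the same sign. Most members were lower with E2 (30 of 47 tested and 33 of 36 dim), so a shared sign is common among members anyway. The count was not set against that of other pairs and says nothing about neighbouring genes. Kcna3, Kcna2 and Kcna10 follow each other, and of these Kcna2 fell by 2.75 with E2, Kcna3 was at -0.01 and the dim Kcna10 at -0.58. In the row Kcna5, Kcna1 and Kcna6, Kcna1 rose by 1.32 while Kcna5 was at -0.43 and the dim Kcna6 at -0.39. Kcnip1, which fell by 3.24, lies next to Kcnmb1, at 0.22. The other 4 pairs are inward rectifier genes, none of which was called with E2 in the main fit. The dim Kcnj9 was called with no filter, and in limma after quantile normalization (-0.33, adjusted p = 0.0297). Kcnj9 and Kcnj10 were both at -0.52, Kcnj5 and Kcnj1 at -0.29 and -0.31, Kcnj16 and Kcnj2 at -0.19 and -0.36, and Kcnj6 and Kcnj15 at -0.06 and -0.14. Within the Kv4 complex the pore gene Kcnd3 and the partner gene Kcnip1 fell while Kcnip2 rose. Its partner genes Kcnip3 (-0.35), Kcnip4 (0.12) and Dpp6 (-0.10) were not called. Within the Kv2 complex Kcnb2 and Amigo1 fell while the silent subunit gene Kcnf1 rose. Other silent subunit genes tested were not called: Kcng1 (-0.04), Kcng2 (-0.02), Kcns2 (-0.36), Kcns3 (0.13) and Kcnv2 (-0.19). Within the BK complex Kcnma1 fell, Lrrc26 rose, and Kcnmb1 and Kcnmb3 (-0.42) were not called. The dim Kcnmb2 (-0.56) and Kcnmb4 (-0.26) were lower. These differences between genes of one complex were seen side by side and not tested against each other.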

How the data were processed

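RNA from 12 uteri, 3 rats in each of 4 groups, was measured on Affymetrix arrays, and the labels name the samples of a group as separate rats. The deposited intensity values, 1 per probe set on a linear scale, were made by the authors with Affymetrix Expression Console and PLIER, per the submitters' processing notes. What versions and settings were used, which genome build and whether arrays were normalized together is not given in the sources used here. In all, 29214 probe sets were listed, of which 15310 have 1 gene symbol in the platform annotation, 323 several and 13581 none. Several probe sets of a gene were reduced to the one with the highest mean (2 members had 2), and 1 probe set that names a Kcn symbol among several was left out. All 83 symbols matched RefSeq genes of GRCr8.

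From these values log2(intensity + 16) was computed and the 30% of genes with the lowest mean were left out. limma 3.58.1 in R 4.3.3 was fitted to all 12 arrays with 1 mean per group, 6 comparisons, and Benjamini-Hochberg adjustment over 10154 genes, two-sided. The steps were tested on simulated data. Precision is limited by the number of arrays, and the median SE of an E2 minus vehicle difference was 0.22. Alternatives were quantile normalization, median centring, offsets of 1 and 64, no filter or one at 50%, limma's trend and robust options, only the groups compared, the mean of a gene's probe sets, a replicate block, and each rat left out.

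The text names members called in any comparison, those called after quantile normalization with a difference of at least 0.8, the 3 highest and 3 lowest of each comparison, the 5 brightest, and members with a textbook role in uterus or smooth muscle (some of that list are not analysed here). Others are named where a count turns on them or as relatives of a named gene, after their values were seen. The members, the partner and marker lists and the tests were chosen with earlier results of these data known. Promoters were searched with Python 3.11.15.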

Additional observations from a re-analysis of the deposited data

Results flagged for a closer look

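Kcne3, the accessory subunit gene, was the one tested member whose groups were without overlap in opposite directions without and with 3-MC. The E2 rats (165, 86.3 and 99.2) lay below the vehicle rats (245, 187 and 192). The E2+3-MC rats (199, 259 and 201) lay above the 3-MC rats (193, 143 and 177), with the nearest at 199 and 193. The call without 3-MC was lost in 3 alternatives, and with 3-MC the difference was 0.33 and was not called. The E2 difference with 3-MC minus that without it was 1.12 ± 0.32 on the log2 scale. Its adjusted p was 0.977 for the interaction in limma, so it did not pass the test over all genes. After quantile normalization it was 0.93, with an adjusted p of 0.837.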

How the results depend on the processing

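Over all named members, comparisons and alternatives, 3660 values kept their side of the threshold, 39 lost the call and 45 gained it. As called values, 0 changed direction. Values that were not called could change sign: Kcnip1 in 3-MC minus vehicle was at -0.10, and at 0.23 without vehicle rat 1. The number of members called moved by over 1.5 times in these cases. With 50% of genes left out as dim, which removes members from the test, it was 9 in E2 minus vehicle, 3 in E2+3-MC minus vehicle, and 5 where E2+3-MC was set against 3-MC. After quantile normalization it was 14 in E2+3-MC minus vehicle, and 18 where E2+3-MC was set against 3-MC. With only the groups compared in the fit, which leaves out vehicle rat 1 where it is in neither group, it was 3 in E2+3-MC minus E2, and 15 where E2+3-MC was set against 3-MC. Leaving out 1 rat at a time gave 12 to 22 calls for E2 minus vehicle (lowest without E2 rat 3, highest without vehicle rat 1), 7 to 10 for E2+3-MC minus vehicle, 0 to 3 for E2+3-MC minus E2, 7 to 15 for E2+3-MC minus 3-MC, and 0 to 0 for 3-MC minus vehicle and for the interaction. Rat numbers recur in all groups. Deviations from the group means correlated between same-numbered rats with r from -0.27 to 0.24 (mean 0.04, 8 of 18 pairs over 0.1). Between rats of different numbers r ran from -0.44 to 0.39 (mean -0.02, 9 of 36 pairs over 0.1). Rat 1 had the highest array median of each group (111, 108, 124 and 118). A correlation over genes does not see a shift of a whole array, so it cannot decide whether the numbers pair the rats. With the replicate block 17, 9 and 10 members were called for E2 minus vehicle, E2+3-MC minus vehicle and E2+3-MC minus 3-MC, and 0 in the others. Dim probe sets and 3 rats per group limit what could be seen: a member at or under the dim limit in one group has an uncertain fold.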
